A study of Homo sapiens with 40 samples.

Results

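Histone genes encode the proteins around which DNA is wound. The 76 genes described here were those named as H1, H2A, H2B, H3 or H4 histones by symbol, out of 18244 genes measured, and 56 of them are cluster genes (a family name followed by C and a number) while 20 carry other names and are called variants here. A gene entered if at least 1 probe set was annotated to it alone, and it was represented by its probe set with the highest mean over 40 arrays. By this naming the linker histones H1-1 to H1-5 count as variants, although they lie among the cluster genes and are replicative, so the classes follow the symbols and not the biology of H1. The pattern matched 77 symbols, of which 1 was an antisense RNA and was left out, and 2 of the 76 genes are pseudogenes.

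Expression was measured on Affymetrix PrimeView arrays in AG01522 cells, a single line of normal human skin fibroblasts, which were confluent when treated with X-rays. Cells got 5 cGy alone (the priming dose), 2 Gy alone (the challenge), or both with 12 h between them, written 5 cGy + 2 Gy. RNA was taken 3, 6, 12 or 24 h after the last exposure, with 3 arrays for each of the 12 groups. The control was 4 arrays of sham-irradiated cells, labelled as a 0 h baseline, so an effect of irradiation and of time in culture cannot be told apart against sham. Arrays of 1 group are labelled as biological replicates with no word of separate cultures, so p-values measure only the spread between these arrays, which may be technical.

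Cluster histone genes make the bulk of new histones while DNA is copied. Their short transcripts lack introns and end, as a rule, in a conserved stem-loop in place of a poly(A) tail, which the stem-loop binding protein recognizes. Variants such as H2AZ1 and H3-3B are made throughout the cell cycle from separate genes, mostly as polyadenylated RNA, and replace cluster histones at regulated or transcribed chromatin. Arrays labelled from the 3′ end prime on poly(A), and some cluster genes are known to give polyadenylated transcripts when cells leave the cycle.

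Few histone genes stood clear of the array's background. A floor was set at 5.55 on the log2 scale, the 95th percentile of the mean levels of 340 olfactory receptor genes, which skin fibroblasts are not expected to use. Of the 76 histone genes, 20 had a mean above the floor, 10 of 56 cluster genes and 10 of 20 variants. By family these were 3 of 15 H2A, 3 of 19 H2B, 2 of 10 H3 and 2 of 12 H4 cluster genes, and among variants 4 of 10 H1 and 4 of 5 H2A genes. The other 56 genes had no level that could be told from background, so their values say little in either direction. H3-3A, which encodes the same H3.3 protein as H3-3B, was among the 56, because its only probe set annotated to 1 gene had a mean of 2.92. For 30 of the 76 genes, 10 of them above the floor, the probe set has a suffix that marks probes shared with other transcripts. H2AC6, H4C3, H1-2, H3-3B and H2BC15 are among these 30, and their signals may include other transcripts.

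The promoters of 6 histone genes whose levels changed are shown because they hold the elements by which histone genes are usually described. Windows run from 250 bases before to 50 bases after the start in RefSeq (GRCh38.p14), which had one for 68 of the 76 genes, and are printed on the strand of the gene. Capitals mark the octamer ATTTGCAT, the CCAAT box CCAAT and the TATA box TATAAA, each searched on both strands, where the octamer is the site of the factor Oct-1. H2BC5, H2BC12 and H2AC6 rose at 24 h, and H2BC21, H2AX and H2AZ1 fell.
H2BC5, chr6:26157871-26158170, plus strand: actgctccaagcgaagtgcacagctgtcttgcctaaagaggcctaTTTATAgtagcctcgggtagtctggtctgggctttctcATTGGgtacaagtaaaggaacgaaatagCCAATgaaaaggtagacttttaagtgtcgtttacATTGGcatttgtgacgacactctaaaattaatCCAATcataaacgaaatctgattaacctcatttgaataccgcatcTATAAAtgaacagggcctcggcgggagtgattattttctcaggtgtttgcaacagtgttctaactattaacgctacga
H2BC12, chr6:27146806-27147105, minus strand: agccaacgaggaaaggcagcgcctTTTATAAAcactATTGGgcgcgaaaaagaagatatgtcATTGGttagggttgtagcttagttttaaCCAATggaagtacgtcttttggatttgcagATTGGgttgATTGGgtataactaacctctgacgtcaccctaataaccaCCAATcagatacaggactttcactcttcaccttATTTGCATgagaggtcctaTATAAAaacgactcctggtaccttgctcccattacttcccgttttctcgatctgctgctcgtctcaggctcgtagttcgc
H2AC6, chr6:26123922-26124221, plus strand: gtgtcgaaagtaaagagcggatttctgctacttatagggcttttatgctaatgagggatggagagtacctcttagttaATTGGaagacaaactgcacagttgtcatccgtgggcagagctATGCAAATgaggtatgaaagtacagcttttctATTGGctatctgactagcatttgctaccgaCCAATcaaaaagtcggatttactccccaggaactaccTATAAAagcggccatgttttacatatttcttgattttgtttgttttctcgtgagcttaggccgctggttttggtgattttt
H2BC21, chr1:149886633-149886932, minus strand: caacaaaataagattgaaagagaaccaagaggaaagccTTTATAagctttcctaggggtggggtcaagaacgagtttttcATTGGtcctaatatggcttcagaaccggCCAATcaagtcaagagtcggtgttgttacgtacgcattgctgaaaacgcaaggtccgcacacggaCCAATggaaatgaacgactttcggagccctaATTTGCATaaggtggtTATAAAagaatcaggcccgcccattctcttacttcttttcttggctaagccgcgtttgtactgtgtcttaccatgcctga
H2AX, chr11:119095416-119095715, minus strand: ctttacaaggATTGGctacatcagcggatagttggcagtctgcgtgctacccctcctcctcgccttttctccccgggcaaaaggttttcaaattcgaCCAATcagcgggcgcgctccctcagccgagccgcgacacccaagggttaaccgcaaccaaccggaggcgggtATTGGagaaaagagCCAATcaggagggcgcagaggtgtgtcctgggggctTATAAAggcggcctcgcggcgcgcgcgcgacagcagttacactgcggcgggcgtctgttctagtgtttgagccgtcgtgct
H2AZ1, chr4:99950226-99950525, minus strand: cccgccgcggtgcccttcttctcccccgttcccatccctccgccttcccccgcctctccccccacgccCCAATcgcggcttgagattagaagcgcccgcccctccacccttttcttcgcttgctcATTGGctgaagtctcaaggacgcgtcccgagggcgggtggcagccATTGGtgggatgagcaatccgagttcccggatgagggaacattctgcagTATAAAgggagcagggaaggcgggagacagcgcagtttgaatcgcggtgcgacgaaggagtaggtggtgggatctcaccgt

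All 6 windows held a TATA box on the gene's strand shortly before the start, its first base between -31 and -28, and 3 to 6 CCAAT boxes. In H2BC12 a further pair of TATAAA matches on opposite strands overlapped. The octamer was found in H2BC12 and H2AC6, which rose, and in H2BC21, which fell, and the same letters were not in the window of H2BC5. Among all histone genes with a window the octamer stood in 27 of 68 (39.7%), against 598 of 27305 genes in all (2.19%). It was concentrated in H2A cluster genes (11 of 14) and H2B cluster genes (14 of 18), and was found in 1 of 8 H3 and 0 of 10 H4 cluster genes and 1 of 18 variants, H3-3B. A CCAAT box stood in 60 of 68 histone windows (88.2%) and 39.7% of all genes, and a TATA box in 43 of 68 (63.2%) and 14% of all genes. These letters are a description of sequence, and their use in these cells was not tested.

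The first question was which histone genes differed from sham after each dose and time. Changes are log2 fold changes from limma with all 40 arrays in 1 fit, ± its standard error (SE), and a gene was called changed when its p, adjusted by the Benjamini-Hochberg method over all 18244 genes, was under 0.05. No histone gene was called at 3, 6 or 12 h after any dose. Over all genes the share called was 0%, 0% and 0.329% at 3, 6 and 12 h after 5 cGy, then 0.132%, 0.192% and 0.669% after 2 Gy, and 0.132%, 0.378% and 1.4% after 5 cGy + 2 Gy. With so few genes called anywhere, the early times say little about histone genes in particular. At an unadjusted p under 0.05, between 1 and 9 of the 76 histone genes passed in each of these 9 comparisons. Of all 18244 genes, between 643 and 2420 passed.

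At 24 h, calls appeared after each dose. After 5 cGy 1 of 76 histone genes was called (1.32%, against 3.11% of all genes), a fall. After 2 Gy 4 were called (5.26%, against 6.06% of all genes), 2 rises and 2 falls. After 5 cGy + 2 Gy 7 were called (9.21%, against 9.92% of all genes), 3 rises and 4 falls. Taken over all 76, histone genes were thus called about as often as genes in general, and what follows concerns single genes and not the family as a whole. Above the floor 1, 4 and 6 of 20 members were called (5%, 20% and 30%, in the same order of doses). At or below it 0, 0 and 1 of 56 were. The share of all genes above the floor that were called was not taken, so these shares have no match. In bulk RNA, fewer cells that use a gene and less of its RNA per cell cannot be told apart. The median change over the 76 genes was -0.02 after 5 cGy, -0.09 after 2 Gy and -0.09 after 5 cGy + 2 Gy, and that of olfactory receptor genes was 0.02, -0.04 and -0.05 in the same order. Fitted on only the arrays of each comparison, in place of all 40, limma called 0, 1 and 2 of the 76 genes, namely H2BC5 after 2 Gy, and H2BC5 and H2AX after 5 cGy + 2 Gy.

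**Figure D1:**
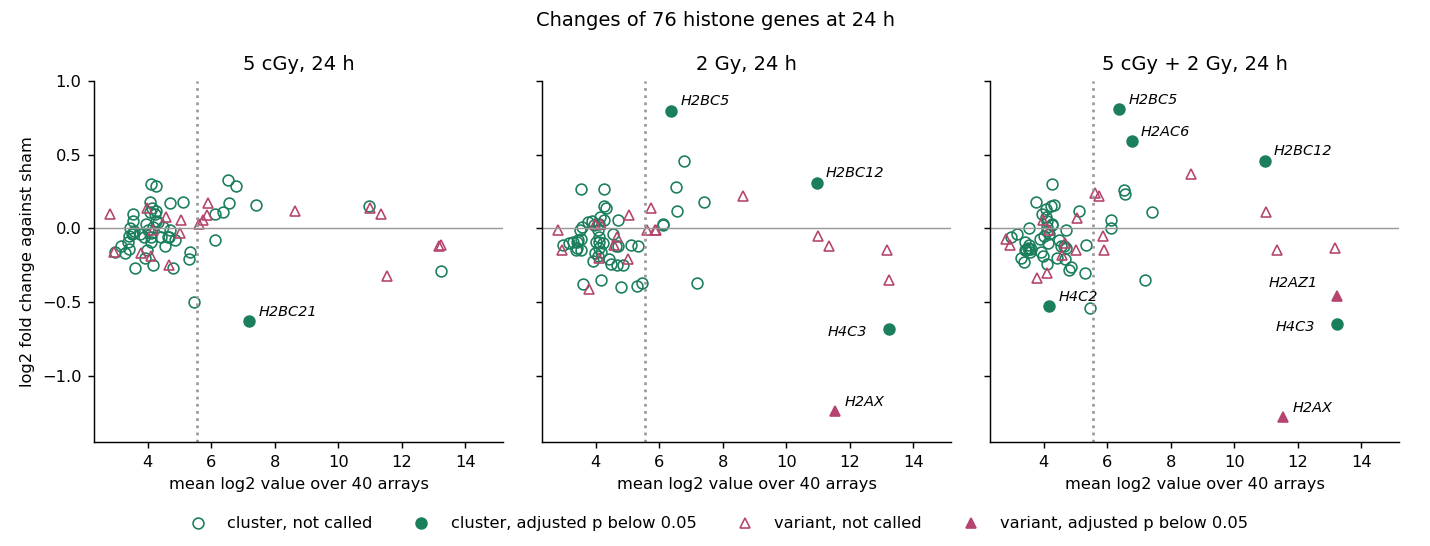
Log2 fold change against sham at 24 h for the 76 histone genes (y axis) against their mean log2 value over 40 arrays (x axis), with circles for cluster genes, triangles for variants, and filled symbols for an adjusted p under 0.05. Right of the dotted line, the floor of 5.55, H2BC5, H2BC12 and H2AC6 lie above 0 and H2AX, H4C3, H2AZ1 and H2BC21 below it, and 1 called gene, H4C2, lies left of the line.

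Of the cluster genes, those that rose encode H2B and H2A. H2BC5, an H2B gene on chromosome 6, had 6.91, 7.02 and 7.30 after 2 Gy and 7.12, 7.01 and 7.12 after 5 cGy + 2 Gy at 24 h, against 6.33, 6.28, 6.13 and 6.35 in sham. Every array of both groups lay above every sham array. The change was 0.80 ± 0.20 (1.74-fold, adjusted p = 0.0122, limma) after 2 Gy and 0.81 ± 0.20 (1.76-fold, adjusted p = 0.00716) after 5 cGy + 2 Gy. After 5 cGy alone the 3 arrays (6.06, 6.27 and 6.81) overlapped sham, with a change of 0.11 ± 0.20. The 2 Gy call was lost without replicate 3 of that group (0.69, adjusted p = 0.112).

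The same gene was read by other probe sets that moved less. After 5 cGy + 2 Gy the second probe set of H2BC5 changed by 0.40 ± 0.14 and the third, whose mean of 4.73 was below the floor, by 0.01 ± 0.16. After 2 Gy both changed by 0.26. With all its probe sets averaged the gene was still called against sham after both doses, at 0.44 and 0.41.

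H2BC12, also an H2B gene, showed a smaller rise from tighter replicates. It had 11.14, 11.01 and 11.21 after 2 Gy and 11.31, 11.18 and 11.32 after 5 cGy + 2 Gy, against 10.67, 10.86, 10.77 and 10.94 in sham. Neither irradiated group overlapped sham. The change was 0.46 ± 0.09 after 5 cGy + 2 Gy (1.38-fold, adjusted p = 0.000798, limma) and 0.31 ± 0.09 after 2 Gy (1.24-fold, adjusted p = 0.0313). After 5 cGy it was 0.15 ± 0.09 (adjusted p = 0.454), with 11, 10.90 and 10.98 overlapping sham. The 2 Gy call was lost without any 1 of 5 arrays, which were sham replicates 1, 2 and 3 and replicates 1 and 3 of 2 Gy (0.27 to 0.33, adjusted p = 0.0576 to 0.2), and the 5 cGy + 2 Gy call was kept without each of 7 arrays. A second probe set of H2BC12, with a mean of 4.11, changed by 0.05 ± 0.14 after 5 cGy + 2 Gy, and with both averaged the 2 doses gave 0.17 (adjusted p = 0.302) after 2 Gy and 0.26 (adjusted p = 0.063) after 5 cGy + 2 Gy.

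H2AC6, an H2A gene, was called after 5 cGy + 2 Gy. It had 7.32, 6.89 and 7.18 in that group, against 6.73, 6.17, 6.61 and 6.65 in sham, without overlap, a change of 0.59 ± 0.15 (1.5-fold, adjusted p = 0.00852, limma). The 2 Gy arrays (6.57, 7.01 and 7.41) overlapped sham and gave 0.46 ± 0.15 (adjusted p = 0.0606), and the 5 cGy arrays (6.89, 6.86 and 6.74) all lay above sham at 0.29 ± 0.15 (adjusted p = 0.363). Sham replicate 2 was the low array, and without it the change was 0.46 (adjusted p = 0.0583). Without replicate 1 of 5 cGy + 2 Gy it was 0.49 (adjusted p = 0.0746). The only probe set of H2AC6 has a suffix that marks probes shared with other transcripts, so the rise may not be of this gene alone.

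The genes beside these on chromosome 6 were not called. The nearest measured histone genes on either side of H2BC5, H1-4 and H2BC6, changed by -0.10 and -0.21 after 5 cGy + 2 Gy. Those beside H2AC6, H2BC4 and H1-4, changed by 0.18 and -0.10, and those beside H2BC12, H2AC11 and H4C9, by 0.26 and -0.28. Of these 5 neighbours H2AC11, which encodes another H2A, was the one above the floor.

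Among the other named members the linker histone H1-2 came closest. It had 8.97, 8.78 and 8.94 after 5 cGy + 2 Gy, against 8.16, 8.70, 8.57 and 8.69 in sham, without overlap, but 0.37 ± 0.13 did not pass (adjusted p = 0.0572, limma). H2AC11 gave 0.33 ± 0.14 after 5 cGy, 0.28 ± 0.14 after 2 Gy and 0.26 ± 0.14 after 5 cGy + 2 Gy (adjusted p = 0.228 to 0.291). H2BC11, H2BC1, H2AC4, H2AC17 and H2BC18, which were at or below the floor, were among the 5 largest positive values in at least 1 comparison, between 0.18 and 0.30, with no call. On the negative side H2BC15, at a mean of 5.29, lay below every sham array after each dose without a call, at -0.21 ± 0.14, -0.39 ± 0.14 and -0.30 ± 0.14. H2BC13 gave -0.38 ± 0.12 (adjusted p = 0.0663), H1-1 -0.41 ± 0.14 (adjusted p = 0.0885) and H4C9 -0.40 ± 0.20 (adjusted p = 0.279) after 2 Gy.

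**Figure D2:**
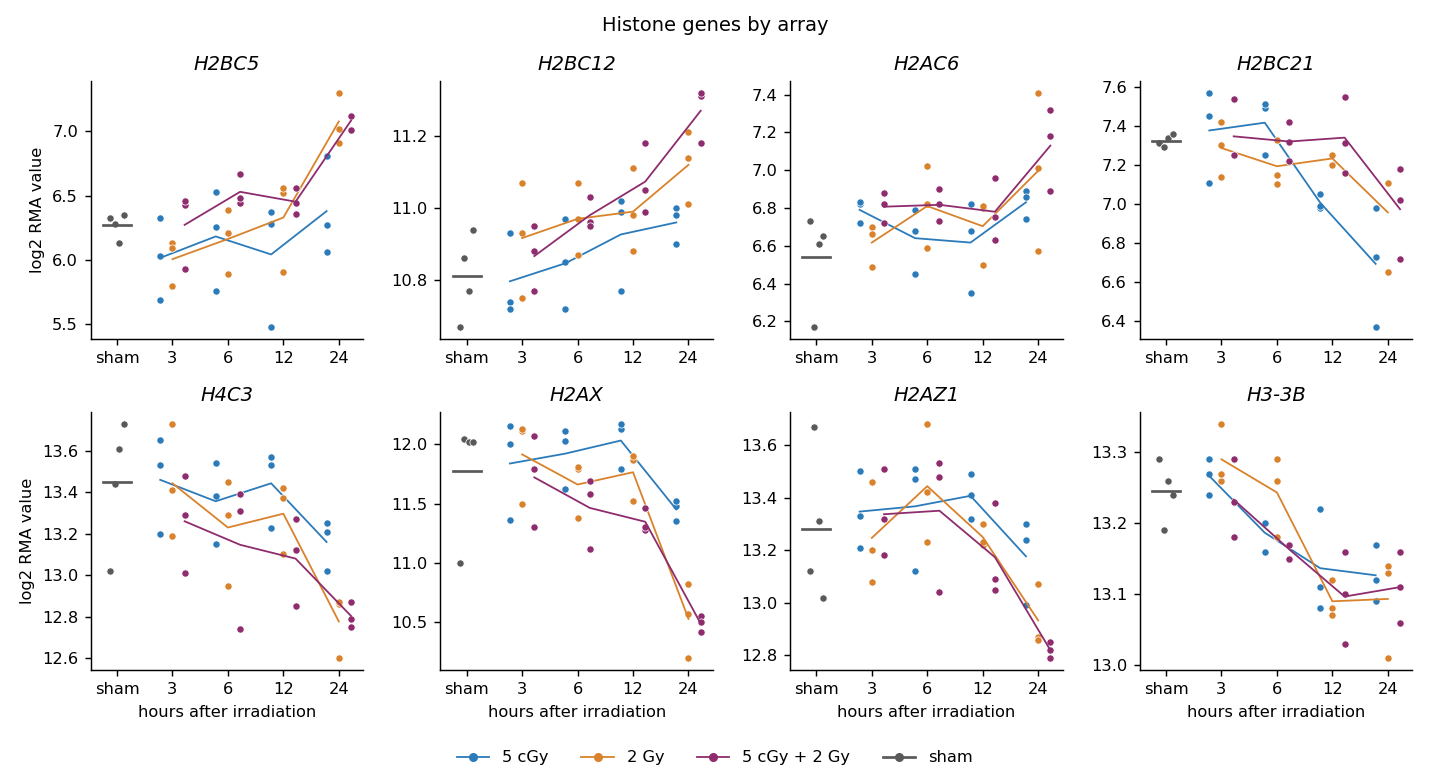
Log2 value of each array for 8 histone genes (y axis, its own scale in each panel) in sham and at each time after each of the 3 treatments (x axis). Points are arrays and lines join group means, with 24 h points after 2 Gy and 5 cGy + 2 Gy above sham in H2BC5 and H2BC12 and below it in H2AX and H4C3.

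The largest change among histone genes was the fall of H2AX, the H2A variant whose phosphorylated form marks DNA breaks. It had 10.82, 10.20 and 10.57 after 2 Gy and 10.55, 10.42 and 10.50 after 5 cGy + 2 Gy at 24 h, against 11, 12.04, 12.02 and 12.02 in sham. All 6 irradiated arrays were below the lowest sham array. The fold was 2.35-fold lower after 2 Gy (-1.24 ± 0.22, adjusted p = 0.000474, limma) and 2.42-fold lower after 5 cGy + 2 Gy (-1.28 ± 0.22, adjusted p = 0.000158). Both calls were kept without each of 7 arrays, and the 2 Gy call was lost when limma was given those 7 arrays alone (adjusted p = 0.0848). After 5 cGy the change was -0.32 ± 0.22 (adjusted p = 0.538), with arrays at 11.48, 11.52 and 11.35. These lay within the sham range only through sham replicate 1 at 11, and below the sham arrays at 12.02 to 12.04. At 12 h H2AX gave -0.01 ± 0.22 after 2 Gy and -0.42 ± 0.22 after 5 cGy + 2 Gy, neither called.

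H2AZ1, the main H2A.Z gene, fell by less. It had 12.85, 12.82 and 12.79 after 5 cGy + 2 Gy, against 13.12, 13.67, 13.31 and 13.02 in sham, without overlap (-0.46 ± 0.14, adjusted p = 0.0282, limma). The 2 Gy arrays, 12.87, 13.07 and 12.86, overlapped sham (-0.35 ± 0.14, adjusted p = 0.142). Its 4 probe sets gave -0.42 to -0.53 after 5 cGy + 2 Gy. The call was lost without sham replicate 2 (-0.33, adjusted p = 0.16), without sham replicate 3 and without each of the 3 irradiated arrays (-0.45 to -0.48, adjusted p = 0.0556 to 0.0977). The related H2AZ2 gave -0.15 ± 0.08 (adjusted p = 0.279).

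Of the H4 genes, H4C3 fell after both doses that held 2 Gy. Its values were 12.86, 12.60 and 12.87 after 2 Gy and 12.75, 12.79 and 12.87 after 5 cGy + 2 Gy, against 13.02, 13.44, 13.61 and 13.73 in sham, with no overlap. The change was -0.68 ± 0.17 (1.6-fold lower, adjusted p = 0.0109, limma) after 2 Gy and -0.65 ± 0.17 (1.57-fold lower, adjusted p = 0.00963) after 5 cGy + 2 Gy. Its second probe set gave -0.59 and -0.60. Without replicate 2 of 2 Gy the change after 2 Gy was -0.59 (adjusted p = 0.0744). Both probe sets have suffixes that mark probes shared with other transcripts, so the signal may include other H4 transcripts and the gene's identity is uncertain. H4C2, the other called H4 gene, had a mean of 4.17, below the floor, and 4.03, 3.80 and 3.70 after 5 cGy + 2 Gy overlapped 3.87, 4.39, 4.60 and 4.65 in sham (-0.53 ± 0.17, adjusted p = 0.0444). Its call was lost without sham replicates 2, 3 or 4 or replicates 2 or 3 of 5 cGy + 2 Gy (-0.44 to -0.53, adjusted p = 0.0941 to 0.193).

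H2BC21, an H2B gene on chromosome 1, was the only histone gene called after 5 cGy, and it fell. It had 6.73, 6.37 and 6.98 at 24 h, against 7.31, 7.29, 7.34 and 7.36 in sham, below every sham array (-0.63 ± 0.13, 1.55-fold lower, adjusted p = 0.00553, limma). After 2 Gy it had 7.11, 6.65 and 7.11 and after 5 cGy + 2 Gy 7.02, 6.72 and 7.18, again below every sham array, with -0.37 ± 0.13 (adjusted p = 0.1) and -0.35 ± 0.13 (adjusted p = 0.0951). Without replicate 2 of 5 cGy the change was -0.47 (adjusted p = 0.0846). Its 2 other probe sets, both at a mean of 4.21 and with the same values, changed by -0.18 ± 0.12 after 5 cGy, and averaging all 3 gave -0.33 (adjusted p = 0.051). H2AC20, its neighbour on chromosome 1, had values of -0.50 ± 0.26, -0.37 ± 0.26 and -0.54 ± 0.26 for 5 cGy, for 2 Gy and for the 2 doses combined, none called. H2BC20P, the pseudogene on its other side, gave -0.09, -0.09 and -0.24.

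H3-3B, which encodes the replacement histone H3.3, changed by a different amount in each probe set. By the probe set with the highest mean it gave -0.12 ± 0.06, -0.15 ± 0.06 and -0.13 ± 0.06 at 24 h for the 3 doses (5 cGy, then 2 Gy, then both), and no comparison with sham was called. Each of the 3 groups lay below sham at 24 h (13.01 to 13.17 in all irradiated arrays, against 13.19 to 13.29 in sham). The probe set with the lowest mean, 9.16, gave -0.71, -0.75 and -0.90, and another, at 11.54, gave -0.27, -0.33 and -0.41. Which of these reads the gene was not tested.

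**Figure D3:**
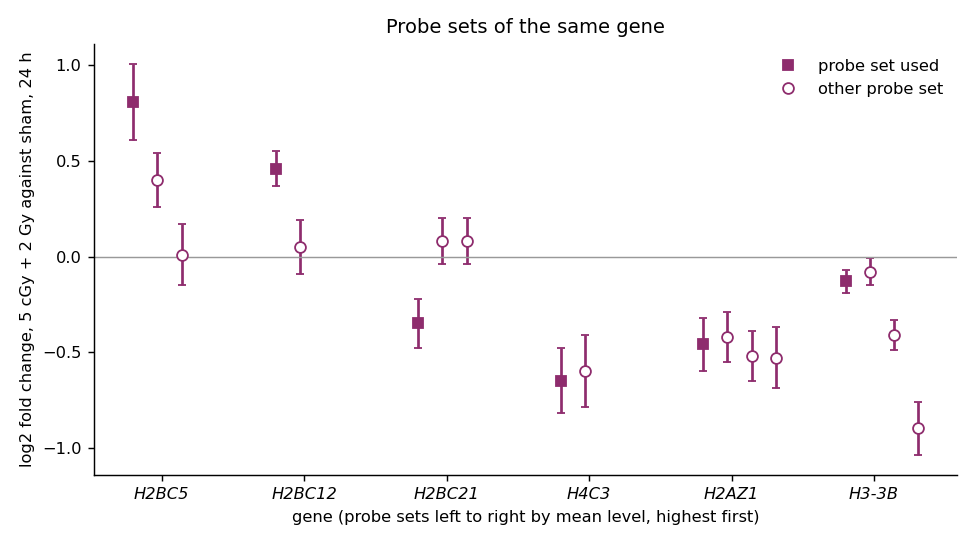
Log2 fold change at 24 h after 5 cGy + 2 Gy against sham (y axis) for each probe set of 6 histone genes (x axis), with error bars of 1 SE and squares for the probe set used. The probe sets of H4C3 and H2AZ1 lie close together, those of H3-3B spread between -0.08 and -0.90, and those of H2BC5 between 0.01 and 0.81.

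The second question was how cluster genes and variants compared as classes. For each array the change from the sham mean was averaged over the 56 cluster genes and over the 20 variants, and the variant value was subtracted. The difference was 0.07 ± 0.03 (SD, n = 3) at 24 h after 2 Gy and 0.07 ± 0.02 (SD, n = 3) after 5 cGy + 2 Gy, inside the range of the 4 sham arrays, -0.09 to 0.11. Over the 12 irradiated groups the mean difference lay between -0.04 and 0.07. As most members sit at background, the same was computed over the 10 cluster genes and the 10 variants above the floor. There the difference was 0.27 ± 0.11 (SD, n = 3) at 24 h after 2 Gy, with arrays from 0.20 to 0.40, and 0.28 ± 0.03 (SD, n = 3) after 5 cGy + 2 Gy, with arrays from 0.25 to 0.31, while sham arrays ran from -0.10 to 0.14. After 5 cGy it was 0.01 ± 0.04 (SD, n = 3). No test was made on these averages.

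On the variant side this rested on H2AX. At 24 h after 5 cGy + 2 Gy the mean change over the cluster genes above the floor was 0.15 ± 0.05 (SD, n = 3), with arrays from 0.10 to 0.19, against -0.07 to 0.10 in sham. Over the 10 variants it was -0.13 ± 0.02 (SD, n = 3), with arrays from -0.15 to -0.11, inside the sham range of -0.21 to 0.10. Without H2AX, left out after the values were seen, the other 9 variants averaged 0 ± 0.02 (SD, n = 3), and the difference of the classes was 0.15 ± 0.03 after 5 cGy + 2 Gy, with arrays from 0.12 to 0.19, and 0.15 ± 0.12 after 2 Gy, with arrays from 0.07 to 0.29, while sham arrays ran from -0.08 to 0.08. In neither class did all members have the same sign, and 7 of the 10 cluster genes had a positive change and 6 of the 10 variants a negative one. H4C3 fell among the cluster genes, H1-2 was positive among the variants, and medians were 0.17 and -0.09. The remaining 56 members, at or below the floor, had a median of -0.10 after either dose that held 2 Gy, and 41 were negative each time. Of 340 olfactory receptor genes 201 were negative after 2 Gy and 212 after 5 cGy + 2 Gy, with medians of -0.04 and -0.05.

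**Figure D4:**
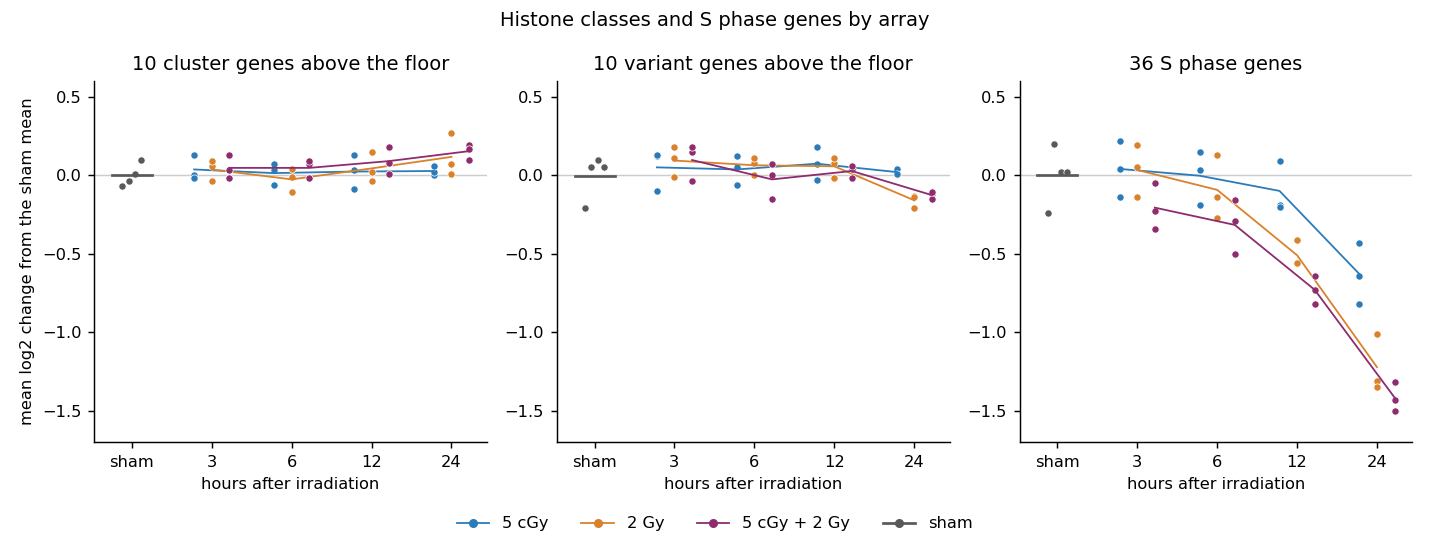
Mean log2 change from the sham mean (y axis) of each array for 10 cluster genes, 10 variants and 36 S phase genes, in sham and over time after each dose (x axis). Points are arrays and lines join group means, and at 24 h after 5 cGy + 2 Gy the cluster mean was 0.15, the variant mean -0.13 and the S phase mean -1.42.

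S phase genes moved far more than either histone class. Of 36 genes of DNA replication and the S phase, 16, 29 and 32 fell and 0 rose at 24 h (5 cGy first, then 2 Gy, then both doses), with medians of -0.50, -1.01 and -1.19. These were 44.4%, 80.6% and 88.9% of the list, against 3.11%, 6.06% and 9.92% of all genes called. RRM2, a subunit of ribonucleotide reductase, gave -4.25 ± 0.24 after 5 cGy + 2 Gy, and CDC6, CDC45 and MCM6, which load or form the replicative helicase, gave -3.16, -3.11 and -1.46, where CDC45 was below the floor after irradiation (4.41 on average). The part of these falls in the histone values was not tested.

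The factors that make and process histone transcripts were taken from a list of 22 measured genes. This list overlaps the S phase list, and both have the same lowest change at 24 h after 5 cGy (-1.66) and at 12 h after 2 Gy (-1.77). The falls of the lists are therefore not separate observations. At 24 h there were 2 falls and 1 rise after 5 cGy (13.6% called, against 3.11% of all genes), 5 falls and 0 rises after 2 Gy (22.7%, against 6.06%) and 6 falls and 2 rises after 5 cGy + 2 Gy (36.4%, against 9.92%). SLBP, the stem-loop binding protein, gave -0.34 ± 0.08 after 2 Gy (adjusted p = 0.009, limma) and -0.30 ± 0.08 after 5 cGy + 2 Gy (adjusted p = 0.0126). CCNE2 and CDK2, a cyclin E and the kinase it works with, which act on the histone gene activator NPAT, were both called after 5 cGy + 2 Gy. CDK2 gave -0.79 ± 0.14, and CCNE2 had means of 2.95 after 5 cGy + 2 Gy and 5.04 in sham, both below the floor, so that the size of its change is not read here. HINFP, a transcription factor of H4 genes, rose by 0.55 ± 0.14 after 5 cGy + 2 Gy (adjusted p = 0.0108). The list's median was -0.03 after 2 Gy and -0.13 after 5 cGy + 2 Gy, against 0.02 and 0.01 over all genes.

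Of 30 histone chaperones and assembly factors, 7 fell and 1 rose after either dose that held 2 Gy (26.7% called each time, against 6.06% of all genes after 2 Gy and 9.92% after 5 cGy + 2 Gy), and 1 fell after 5 cGy (3.33%, against 3.11%). Those that fell included HJURP (-1.89 ± 0.20 after 5 cGy + 2 Gy), which loads the centromeric H3 variant, the H3 chaperone DNAJC9 (-1.20 ± 0.14), and CHAF1A (-0.90 ± 0.14) and CHAF1B (-0.91 ± 0.13), subunits of the assembly factor that follows the replication fork. CENPA, the centromeric H3 variant that the naming leaves out, gave -1.79 ± 0.34 after 2 Gy (adjusted p = 0.00109, limma) and -1.95 ± 0.34 after 5 cGy + 2 Gy (adjusted p = 0.000214), against 0.13 ± 0.34 after 5 cGy. MACROH2A1 and MACROH2A2, the large H2A variants, gave 0.24 ± 0.10 and -0.14 ± 0.16 after 5 cGy + 2 Gy without a call, the second from levels below the floor.

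Among 10 high mobility group and similar chromatin genes, 3 fell and 0 rose after 5 cGy + 2 Gy (30%, against 9.92% of all genes), and 1 fell after 5 cGy and 1 after 2 Gy, so these few calls say little of the list. After 5 cGy + 2 Gy HMGB2 gave -1.63 ± 0.14, HMGA2 -0.46 ± 0.12 and HMGN2 -0.45 ± 0.09. HMGN3 gave -0.27 ± 0.17 and was not called.

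Since no sham array had a later time, 24 h was also set against 3 h within each dose. After 5 cGy, 1 histone gene was called (3.11% of all genes were), H2BC21 (-0.68 ± 0.14, adjusted p = 0.00521, limma), a call lost without replicate 2 at 24 h (-0.52, adjusted p = 0.0698), with only the arrays compared (adjusted p = 0.0793) and with its probe sets averaged (-0.27, adjusted p = 0.16). After 5 cGy + 2 Gy, 4 were called (4.99% of all genes), with H2AX at -1.22 ± 0.24 and H2AZ1 at -0.51 ± 0.15, and H2BC12 at 0.40 ± 0.10 and H2BC5 at 0.81 ± 0.22. Of these the H2AX call was kept without each of 6 arrays. H2BC12 was lost without replicate 2 at 3 h (0.35, adjusted p = 0.0971) or replicate 3 at 24 h (0.37, adjusted p = 0.0625), H2BC5 without 4 of the 6 arrays, the lowest being 0.64 without replicate 2 at 3 h (adjusted p = 0.19), and H2AZ1 without 5 of the 6, the smallest being -0.43 without replicate 2 at 3 h (adjusted p = 0.228). With all probe sets of a gene averaged, H2BC12 gave 0.18 (adjusted p = 0.33) and H2BC5 0.37 (adjusted p = 0.143), neither called. After 2 Gy, 9 were called (11.8%, against 11.6% of all genes), 1 rise and 8 falls. The 3 h arrays of a dose do not enter its comparison with sham, but the 24 h arrays are shared, so these are not independent of the values above.

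The rise after 2 Gy was H2BC5, with 6.91, 7.02 and 7.30 at 24 h, against 6.13, 5.80 and 6.09 at 3 h (1.06 ± 0.22, 2.09-fold, adjusted p = 0.0017, limma). H2AX had 10.82, 10.20 and 10.57 at 24 h, against 11.50, 12.11 and 12.13 at 3 h (-1.38 ± 0.24, adjusted p = 0.000298). H4C3 gave -0.67 ± 0.18, and it was lost without replicate 3 at 3 h (-0.53, adjusted p = 0.1) or replicate 2 at 24 h (-0.58, adjusted p = 0.0767). H3-3B gave -0.20 ± 0.07, and its call was lost without any 1 of the 6 arrays (-0.15 to -0.22, adjusted p = 0.0718 to 0.176). The other 5 falls (H2BC15 -0.67, H4C1 -0.61, H2AP -0.50, H1-1 -0.49 and H2BC13 -0.48) were of genes with means at or below the floor. The H2BC15 call was kept without each of 6 arrays, while H1-1 and H2AP lost theirs without 4 of the 6 and H2BC13 and H4C1 without 3. After cyclic loess scaling H1-1, H2AP and H2BC13 were no longer called (-0.39 to -0.40, adjusted p = 0.0527 to 0.0861). In the same comparison 20 olfactory receptor genes fell and 0 rose, with a median of -0.17. Their median change from the sham mean, taken on each array, averaged 0.12 ± 0.05 (SD, n = 3) in the 2 Gy arrays at 3 h. The difference between the 3′ and 5′ GAPDH control probe sets, a sign of RNA integrity, was 0.56 ± 0.16 (SD, n = 3) in those 3 h arrays and 1.05, 0.26 and 0.27 in the 2 Gy arrays at 24 h, of which replicate 1 stood apart, against 0.33 ± 0.05 (SD, n = 4) in sham. With this difference as a covariate in limma all 9 genes were still called, the falls between -1.37 and -0.20 (adjusted p = 0.000393 to 0.043).

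The series was designed to ask whether the priming dose alters the response to 2 Gy. Between 5 cGy + 2 Gy and 2 Gy no histone gene was called at 3, 6, 12 or 24 h, where 0%, 0%, 0% and 0% of all genes were called with limma. At an unadjusted p under 0.05 there were 11, 2, 0 and 1 of the 76 histone genes. Over all 18244 genes there were 953, 657, 203 and 354. The 11 at 3 h were all at or below the floor (11 of 56, against 0 of 20 above it). In that comparison 29 of 340 olfactory receptor genes passed as well, with a median of -0.09. At 24 h the difference was 0.01 for H2BC5 (95% interval -0.43 to 0.45), 0.15 for H2BC12 (-0.05 to 0.34), -0.04 for H2AX (-0.52 to 0.44) and 0.03 for H4C3 (-0.34 to 0.39). These intervals leave room for a difference in either direction.

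Between doses at 24 h, 2 Gy against 5 cGy, none of the 76 histone genes was called by limma (0.175% of all genes were). Of CENPA, MACROH2A1 and MACROH2A2, which the naming leaves out, 1 was called, a fall, where the lowest change was -1.92. An unadjusted p under 0.05 was found for 7 of the 76 histone genes and for 714 of all 18244 genes. H2AX differed by -0.92 ± 0.24 (adjusted p = 0.155), with 10.82, 10.20 and 10.57 after 2 Gy, against 11.48, 11.52 and 11.35 after 5 cGy, without overlap. H2BC5 differed by 0.69 ± 0.22 (adjusted p = 0.512), with 6.91, 7.02 and 7.30 after 2 Gy, against 6.06, 6.27 and 6.81 after 5 cGy. H4C3 differed by -0.38 ± 0.18 (adjusted p = 0.999). The H2AX difference was called with array weights (-0.96, adjusted p = 0.00105) and with only the arrays compared (adjusted p = 0.0449). With the replicate number as a block in limma, H2AX (-0.92, adjusted p = 0.0132) and H2BC5 (0.69, adjusted p = 0.0294) were both called. Whether either gene differs between the doses thus depends on the fit.

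As a check of the cells, 12 of 12 fibroblast markers were above the floor, with a median level of 12.5. Of the markers of other cells 2 of 7 keratinocyte, 3 of 6 melanocyte, 3 of 6 endothelial and 1 of 6 leukocyte genes were above it. The mean of each list moved little between groups, from 5.44 to 5.63 for keratinocyte, 5.31 to 5.50 for melanocyte, 5.29 to 5.63 for endothelial and 4.74 to 4.92 for leukocyte genes. Arrays correlated with each other at 0.9692 to 0.9976.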

How the data were processed

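Labelled cRNA was made from total RNA with a kit that primes at the 3′ end. The deposited log2 values were made by the authors with RMA, which adjusts background, normalizes by quantiles and summarizes each probe set. Array medians were 5.62 to 5.7 and values 2.33 to 14.78. RMA is listed, with no version, among the tools of the submitters' processing notes, and the study's methods name a custom probe set definition, while the deposited table holds the maker's 49495 probe sets (102 controls). Probe sets were named from the platform annotation: 45278 had 1 gene, 1333 several and 2884 none. Of the histone probe sets, 15 with several genes were not used. Of the 18244 genes, 11825 had several probe sets.

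Changes were fitted with limma 3.58.1 in R 4.3.3, with 13 group means, no covariate, 27 residual and 5.4 prior degrees of freedom, and two-sided tests. Arrays of the same replicate number resembled each other across groups, and 37 of 39 correlated best with their own number. The p-values of this fit do not account for that, and a fit with the replicate number as a block is given in the closing section. The 20 comparisons were adjusted separately, and the fit was tested on simulated data. Members and gene lists were chosen with earlier results of these data known. Named genes were every histone gene called in any comparison (14), the 5 largest positive and 5 largest negative changes in each comparison of 24 h with sham, and, from each list, the 4 members with the smallest p at 24 h after 5 cGy + 2 Gy. The neighbours, H2AZ2 and H3-3A were named after their values were seen. Alternatives are given in the closing section. The number of arrays limits the precision.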

Additional observations from a re-analysis of the deposited data

Results flagged for a closer look

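In sham, H2AX had 1 array far from the other 3: replicate 1 was at 11 and the next lowest at 12.02, a gap of 0.982 of the group's range. About 1 in 20 such groups is set apart by chance. Replicate 1 also had the lowest H2AX value of its group at 3 h, 6 h and 12 h after 5 cGy and after 2 Gy and at 3 h and 6 h after 5 cGy + 2 Gy (for example 11.36 against 12.15 and 12 at 3 h after 5 cGy), and its mean over S phase genes was -0.24, the lowest in sham. Without it the falls of H2AX at 24 h were still called. H2BC18, an H2B gene below the floor, moved to opposite sides of the sham mean in 2 groups at 24 h: 0.12 after 5 cGy + 2 Gy and -0.11 after 2 Gy, a difference of 0.23 in which every array lay on its group's side. With limma the difference between these groups was not called (adjusted p = 1).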

How the results depend on the processing

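Of 669 values of named histone genes recomputed under other settings, 573 kept their direction and their side of the threshold and 0 changed direction. Counts of histone genes called moved as follows. With the cutoff used in the study's methods (p under 0.05 with no adjustment, and over 1.2-fold) they were, in order of time, 1, 3, 3 and 4 after 5 cGy, 6, 1, 4 and 11 after 2 Gy, and 7, 3, 7 and 13 after both doses, against sham. By the same cutoff 24 h against 3 h gave 5, 16 and 10. Both doses against 2 Gy gave 9 at 3 h and 1 at 6 h. For 2 Gy against 5 cGy the count was 6. Over all 18244 genes this cutoff gave 439, 774, 1248 and 2331 after 5 cGy, in order of time. It gave 1870, 787, 1386 and 2887 after 2 Gy, and 823, 1153, 1776 and 3464 after both doses. For 24 h against 3 h it gave 2420, 4530 and 2845. For both doses against 2 Gy it gave 721 at 3 h and 521 at 6 h. For 2 Gy against 5 cGy it gave 590. With array weights the count of histone genes called was 4 after 5 cGy at 24 h. After 2 Gy the counts were 1, 1 and 10 at 6, 12 and 24 h. After both doses they were 2, 3, 4 and 16 from 3 to 24 h. For 24 h against 3 h they were 3 after 5 cGy and 20 after both doses. The count was 1 for 2 Gy against 5 cGy. Over all genes the weights gave 1791, 3258 and 4295 calls at 24 h against sham in place of 567, 1105 and 1809. At the earlier times they gave 802 and 765 after 2 Gy at 6 and 12 h, and 141, 1595 and 1186 after both doses at 3, 6 and 12 h. They gave 1354 and 4481 for 24 h against 3 h after 5 cGy and after both doses, and 111 for 2 Gy against 5 cGy. With only the arrays compared the 24 h counts were 0, 1 and 2 against sham, 0 and 4 for 24 h against 3 h after 5 cGy and after 2 Gy, and 1 for 2 Gy against 5 cGy. Over all genes that setting gave 17, 119 and 422 at 24 h against sham. It gave 293 and 1249 for 24 h against 3 h after 5 cGy and after 2 Gy, and 50 for 2 Gy against 5 cGy. That setting ended every call against sham at 24 h except those of H2BC5 after both treatments with 2 Gy and of H2AX after both doses (H2AX after 2 Gy: -1.24, adjusted p = 0.0848). The cause of these moves was not tested. With the mean of all probe sets of a gene the count was 1 for both doses at 12 h, against 233 over all genes. H2BC12 after 2 Gy was also lost with the GAPDH 3′ minus 5′ difference as a covariate (adjusted p = 0.0561).

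Replicate numbers were not taken as pairs in the main fit, although arrays of the same number resembled each other across groups. Of 234 pairs of the same number 186 correlated over 0.1 (mean 0.263, range -0.223 to 0.716, against a mean of -0.12 for different numbers). Of 39 arrays 37 correlated best with their own number. The p-values of the main fit do not account for this shared spread. With the replicate number as a block the counts were 2, 2 and 7 after 2 Gy at 3, 12 and 24 h, 1 after both doses at 12 h, 2 and 7 for 24 h against 3 h after 5 cGy and after both doses, and 2 for 2 Gy against 5 cGy, H2AX (-0.92, adjusted p = 0.0132) and H2BC5 (0.69, adjusted p = 0.0294). Over all genes the replicate block gave 2370, 2718 and 3568 calls at 24 h against sham. It gave 465 and 1224 after 2 Gy at 3 and 12 h, and 1584 after both doses at 12 h. For 24 h against 3 h it gave 1719 after 5 cGy and 2134 after both doses, and 86 for 2 Gy against 5 cGy.

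The difference of cluster genes minus variants at 24 h became -0.05 after 5 cGy with H1-1 to H1-5 as cluster genes. As a median over members it was -0.03 after 5 cGy, 0 after 2 Gy and 0 after both doses. With the mean of probe sets it was 0.02 after 5 cGy and 0.11 after both doses, and over members above the floor 0.01, 0.27 and 0.28, or -0.02, 0.15 and 0.15 without H2AX, a setting chosen after seeing the data. Leaving out 1 array at a time gave counts at 24 h of 0 to 1, 2 to 6 and 5 to 7 against sham, of 0 to 1, 4 to 8 and 1 to 4 against 3 h, and 0 to 1 at 12 h after 2 Gy and after both doses. All other counts stayed at 0. The differences ran from -0.02 to -0.01, 0.05 to 0.08 and 0.06 to 0.08. Low signal limits the 56 genes at or below the floor.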
